A study of Mus musculus with 12 samples.

Results

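The colony-stimulating factor family was described through 6 genes: Csf1, which encodes the ligand M-CSF, and the receptor genes Csf1r, Csf2ra, Csf2rb, Csf2rb2 and Csf3r. Members were every probe set annotated to exactly 1 of these symbols, which gave 12 of the 22626 probe sets tested and 6 of the 12393 genes that such probe sets represent. Csf1 had 4 probe sets, Csf1r 3, Csf2ra 2 and the others 1 each. No value entered the choice of probe sets. Probe sets of 1 gene read the same transcripts and were not counted as replicates.

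Total RNA of 12 mouse samples, in 4 groups of 3, had been hybridised to Affymetrix expression arrays. The first group was RAW264.7 cells cultured overnight with estradiol at 1 ug/mL, and its counterpart was unstimulated RAW264.7 cells, which received vehicle according to the design text. RAW264.7 cells are an established macrophage-like line derived from a male mouse, and both of its groups share whatever the line carries. The remaining groups were bronchoalveolar lavage (BAL) macrophages of pregnant mice and of control mice, whose washed-out airspace cells went straight to RNA extraction. The estradiol treatment text is attached to the lavage samples too, so only the group label was used to assign groups. Genotype, strain, age, sex and stage of pregnancy of the mice, the vehicle, any sorting or pooling, and whether replicates were separate cultures or animals are not given in the sources used here. The p-values therefore cover only how much these samples varied, in part perhaps for technical reasons.

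Colony-stimulating factors are secreted proteins that keep myeloid cells alive and direct their maturation. M-CSF and interleukin-34 signal through CSF1R, a receptor tyrosine kinase on cells of the macrophage lineage, whereas GM-CSF binds a specific alpha chain, CSF2RA, paired with the common beta chain CSF2RB, and signals through JAK2 and STAT5. In mouse lung, GM-CSF from the alveolar epithelium is needed for alveolar macrophages to form and to handle surfactant. G-CSF acts through CSF3R, best known from neutrophils.

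Values are given as log2(intensity + 1) of the deposited linear intensities, so a difference of 1 is a doubling, slightly understated for dim probe sets. A probe set is called changed when the adjusted p of the limma fit over all 22626 probe sets is under 0.05, and dim when fewer than 3 of the 6 arrays in a comparison place it above their own 40th percentile. The files hold no detection calls, and differences are taken between arrays within a probe set. Only the percentile rule and the marker sums below set probe sets beside each other. A sum adds linear intensities, so its brightest probe sets weigh most. The number of arrays limits the precision. Median intensities ran from 369 to 393 over the 12 arrays, and Pearson correlations over probe sets were 0.995 to 0.999 within groups and 0.912 to 0.919 between line and lavage. The second estradiol array stood apart from the rest of the line in RNA quality. Its 3' minus 5' log2 signal of actin was 0.74, and the remaining arrays of the line gave 0.39 to 0.48. For the transferrin receptor it was 4.31, where those arrays gave 3.16 to 3.43.

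Of 8 macrophage marker genes, 7 lay above the 40th percentile on every lavage array and 6 on every array of the line, with sums of 58441 to 62531 in lavage and 47320 to 51390 in the line. Cd68, Lyz2 and Adgre1 were above it in all groups, Itgam was below it in lavage, and Mertk and Marco were below it in the line. In the lavage, however, 6 to 8 of 8 epithelial markers (surfactant proteins, keratins and the like) also lay above the 40th percentile, with sums of 26262 to 37228, against 337 to 423 in the line. Their levels were uneven. The keratin Krt19 was the brightest on every lavage array (13.62 to 13.90), and the surfactant gene Sftpb lay between 6.70 and 8.04. B cell and fibroblast or endothelial markers stayed below that percentile in every group. Which cells made these marker transcripts was not tested, nor was the part of other cells in the values below. In such bulk samples fewer cells of a type and less RNA per cell cannot be told apart.

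The start regions of the members that differed between groups are shown because the line and the lavage differed in the receptor genes and estradiol cells differed in Csf1. RefSeq's promoter table (GRCm38.p6) held 4 of the 6 genes, and each line gives the 250 bases before the transcription start, 5′ to 3′ on the gene's strand. Capitals mark 1 kind of motif match per sequence: an NF-kB decamer in Csf1 and the PU.1 core in the other genes. PU.1 is the myeloid transcription factor known to act on macrophage receptor genes, and NF-kB is an inflammatory one.
Csf1, chr3:107760470-107760719, minus strand: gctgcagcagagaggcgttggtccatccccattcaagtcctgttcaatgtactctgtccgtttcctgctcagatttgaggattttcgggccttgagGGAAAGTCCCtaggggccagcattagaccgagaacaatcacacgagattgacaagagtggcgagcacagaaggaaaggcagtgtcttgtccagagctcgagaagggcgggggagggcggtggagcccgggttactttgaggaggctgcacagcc
Csf2ra, chr19:61228419-61228668, minus strand: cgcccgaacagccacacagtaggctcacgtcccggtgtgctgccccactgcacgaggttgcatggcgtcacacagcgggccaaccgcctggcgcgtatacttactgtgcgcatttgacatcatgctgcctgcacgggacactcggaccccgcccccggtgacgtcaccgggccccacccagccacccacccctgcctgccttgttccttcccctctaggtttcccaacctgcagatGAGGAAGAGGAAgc
Csf2rb2, chr15:78305722-78305971, minus strand: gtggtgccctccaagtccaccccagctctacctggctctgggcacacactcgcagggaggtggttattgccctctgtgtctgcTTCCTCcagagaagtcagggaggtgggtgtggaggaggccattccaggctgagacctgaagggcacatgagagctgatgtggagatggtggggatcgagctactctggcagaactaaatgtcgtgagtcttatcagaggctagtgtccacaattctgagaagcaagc
Csf3r, chr4:126024409-126024658, plus strand: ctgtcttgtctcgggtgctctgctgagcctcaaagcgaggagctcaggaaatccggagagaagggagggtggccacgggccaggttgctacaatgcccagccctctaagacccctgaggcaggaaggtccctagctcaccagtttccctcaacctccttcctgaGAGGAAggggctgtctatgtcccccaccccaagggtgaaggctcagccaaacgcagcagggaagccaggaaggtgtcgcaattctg

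Motifs were chosen with the values known and were searched on both strands. The NF-kB decamer, spelled by the capitals in the Csf1 line, lay 154 to 145 bases before the Csf1 start and was held by 46 of all 32851 windows of this length, or 0.14%. It is a special case of the general NF-kB consensus, held by 7.25% of windows, which also matched Csf3r 129 to 120 bases before its start. The PU.1 core GAGGAA had a pair of matches side by side in Csf2ra, at 14 to 9 and 8 to 3 bases before the start, 1 in Csf3r at 86 to 81, and 1 on the opposite strand of Csf2rb2 at 167 to 162. That core is common, being held by 23.3% of windows. A STAT site, TTCNNNGAA, lay 15 to 7 bases before the Csf2rb2 start and was held by 7.02% of windows. The letters of the C/EBP core TTGCNNAA (9.56% of windows), the AP-1 site TGANTCA (6.75%) and the estrogen response element, GGTCA and TGACC parted by 3 bases (0.0639%), were not found in these 4 windows. These are matches of letters and were not tested as sites.

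**Figure D1:**
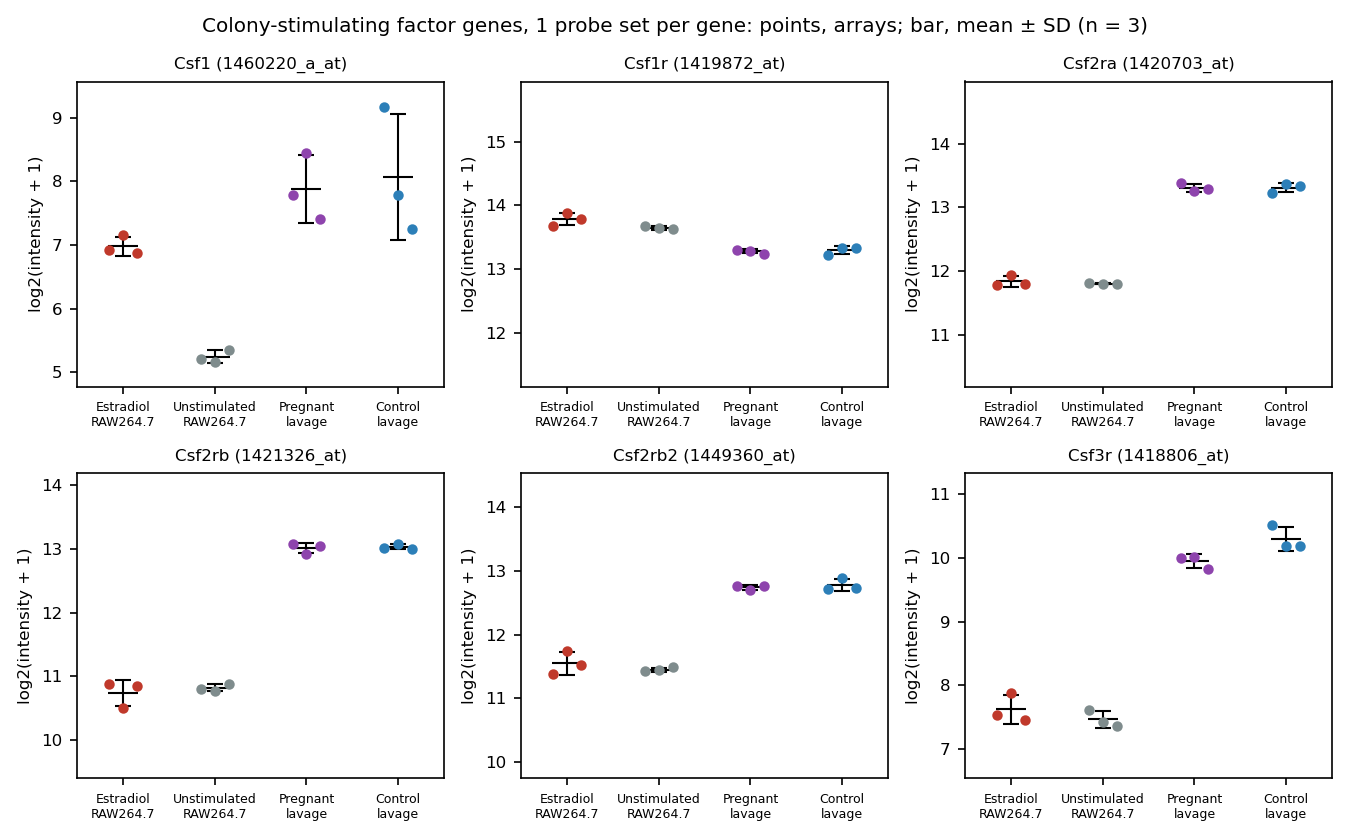
Levels of the 6 genes, 1 probe set each, as log2(intensity + 1) on the vertical axis for the 4 groups; points are arrays and bars are means with SD (n = 3). Every panel spans the same number of log2 units. Csf1 sat highest in the lavage and lowest in unstimulated RAW264.7 cells, Csf1r was the only one of these genes that sat higher in the line, and Csf2ra, Csf2rb, Csf2rb2 and Csf3r sat higher in the lavage.

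Estradiol-treated RAW264.7 cells had more Csf1 than unstimulated ones, and the receptor genes showed no called change. Of the 12 probe sets, 2 were called, both of Csf1 and both higher, beside 9.27% of all probe sets called either way and 5.10% called higher. The groups did not overlap for 7 of the 12, all of Csf1 or Csf1r and all higher, beside 33.0% of all probe sets. An unadjusted p under 0.05 was reached by 6 members, beside 25.0% of all probe sets. The median change of the 12 was 0.18, against 0.01 over all probe sets.

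The Csf1 probe set 1460220_a_at measured 6.92, 7.15 and 6.87 in estradiol cells, against 5.21, 5.17 and 5.35 in unstimulated cells. Every estradiol array lay far above every unstimulated one. The difference was 1.74 ± 0.09 (SE, 95% interval 1.52 to 1.95), or 3.33-fold higher, with a limma adjusted p of 0.000296. It remained called with each array left out, between 1.65 and 1.79, the lowest value being that without the second estradiol array. This probe set was dim in the line, since only 1 of the 6 arrays lay above the 40th percentile, so a filter on dim probe sets would have removed it.

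The other Csf1 probe sets moved the same way by less. Probe set 1448914_a_at measured 6.38, 6.63 and 6.50 in estradiol cells and 6.10, 5.86 and 6.04 in unstimulated cells. The groups were apart, and the difference of 0.50 ± 0.09 was called (adjusted p = 0.0197), but the call was lost without the second (adjusted p = 0.0724) or the third (0.0742) unstimulated array, without the third estradiol array (0.0726), and when all 12 arrays shared 1 fit (0.420). For 1425155_x_at, whose suffix marks probes that can also match other transcripts, estradiol cells measured 6.13, 6.14 and 6.22 and unstimulated cells 5.65, 5.88 and 5.93. Its difference of 0.34 ± 0.08 just missed the threshold (adjusted p = 0.0503). It was called by limma on a common median (0.0423) and with array weights (0.00315). Probe set 1425154_a_at, at 6.79, 6.96 and 6.75 in estradiol cells against 6.75, 6.55 and 6.56, differed by 0.21 ± 0.08 (adjusted p = 0.177). The changes of the 4 probe sets thus spanned 1.53 log2 units.

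**Figure D2:**
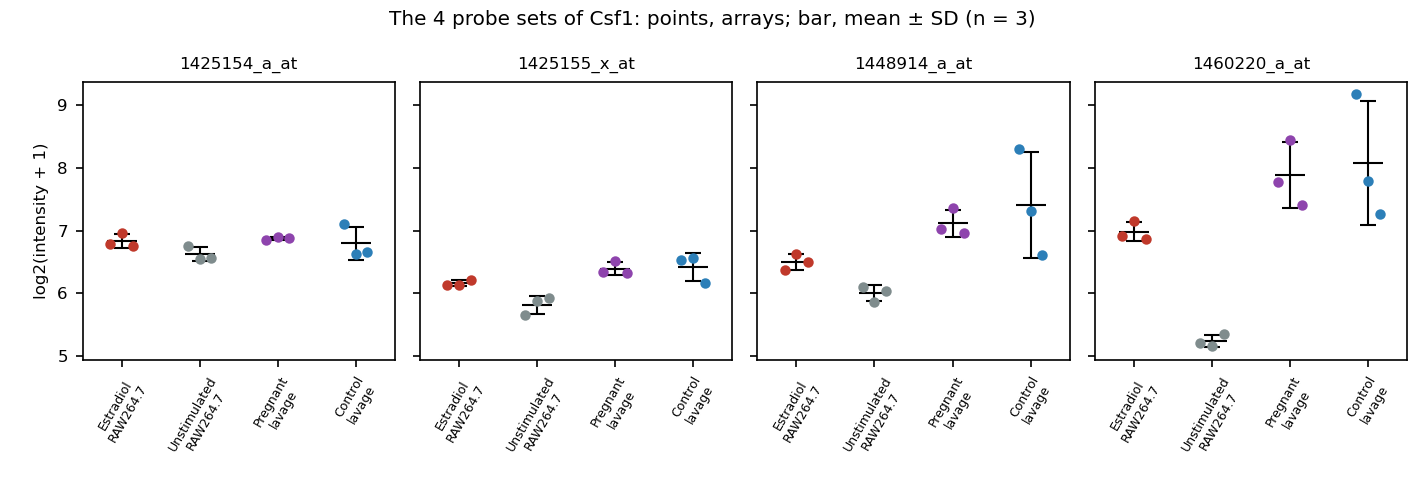
The 4 Csf1 probe sets as log2(intensity + 1) on a shared vertical axis, for the 4 groups; points are arrays and bars are means with SD (n = 3). The step between estradiol and unstimulated cells is 1.74 for 1460220_a_at and 0.21 to 0.50 for the others, and the lavage arrays scatter most for 1460220_a_at and 1448914_a_at.

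Csf1r, the M-CSF receptor and a defining transcript of macrophages, was bright on every array. Its representative probe set, 1419872_at, the one with the highest mean, measured 13.68, 13.87 and 13.79 in estradiol cells and 13.68, 13.64 and 13.63 in unstimulated cells. Probe set 1419873_s_at measured 12.95, 13.27 and 13.09 against 12.85, 12.83 and 12.80. Probe set 1423593_a_at measured 11.94, 12.41 and 12.13 against 11.86, 11.84 and 11.82. In all 3 the estradiol arrays lay above the unstimulated ones, by a hair for 1419872_at, and the second estradiol array, the one with the divergent RNA quality values, was highest. The differences were 0.13 ± 0.06 (adjusted p = 0.248), 0.28 ± 0.09 (0.0993) and 0.32 ± 0.12 (0.149), none of them called. Without the second estradiol array they were 0.09, 0.19 and 0.19, also not called. Without the first estradiol array, 1419873_s_at (0.35, adjusted p = 0.0423) and 1423593_a_at (0.43, adjusted p = 0.0472) were called. With array weights in limma, which called 8297 of all 22626 probe sets, all 3 were called (adjusted p = 0.0179, 0.00294 and 0.00463). The intensity-dependent robust prior of limma called 1419873_s_at only (0.0355).

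The GM-CSF receptor chains and Csf3r showed small differences with intervals on both sides of 0. The alpha chain Csf2ra measured 11.78, 11.94 and 11.79 by 1420703_at in estradiol cells and 11.81, 11.80 and 11.79 in unstimulated cells, a difference of 0.04 (95% interval -0.10 to 0.18). Its second probe set, 1420704_at, measured 7.99, 7.92 and 7.64 against 7.95, 7.75 and 7.90 and differed by -0.02 (-0.26 to 0.23). The groups overlapped for both.
The common beta chain Csf2rb measured 10.87, 10.50 and 10.85 against 10.80, 10.77 and 10.88, with a difference of -0.07 (-0.32 to 0.18) that turned to 0.04 without the second estradiol array, its lowest. Csf2rb2, the mouse beta chain specific to interleukin-3, measured 11.39, 11.74 and 11.52 against 11.42, 11.44 and 11.49 and differed by 0.10 (-0.12 to 0.32). Csf3r, the G-CSF receptor, measured 7.53, 7.88 and 7.45 against 7.61, 7.42 and 7.36 and differed by 0.16 (-0.14 to 0.46). In these 3 genes too the groups overlapped, with the second estradiol array the extreme one each time.

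Pregnancy gave no called change in any member. The count was 0 of 12 probe sets with limma, beside 0% of all 22626, and no setting tried called a member. One member passed an unadjusted p under 0.05, beside 9.88% of all probe sets, and the groups of that same member did not overlap, beside 15.8%. The median change of the members was -0.04, against 0.02 over all probe sets.

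That member was Csf3r, which measured 10.00, 10.02 and 9.82 in pregnant lavage and 10.51, 10.19 and 10.20 in control lavage. All pregnant arrays lay below all control arrays. The difference was -0.35 ± 0.11 (95% interval -0.62 to -0.08) with an adjusted p of 0.439, so it was not called. Without the first control array, the highest for Csf3r, it was -0.24. That array also had the largest sum of markers of neutrophils, cells in which Csf3r is abundant. The sum was 20503, against 6427 to 11332 on the other 5 lavage arrays. Its brightest markers there were S100a9 (13.6) and S100a8 (12.28). These and Ltf (10.93) and Cxcr2 (7.24) were higher on that array than on any other lavage array. Single markers differed, however. Mmp8 (10.14) was lowest of the control arrays there, and Ngp, Camp, Mpo and Elane were dim in the lavage. Within pregnant lavage Csf3r followed the order of the sums, at 9.82, 10.00 and 10.02 for sums of 6730, 8521 and 11332. Between the groups it did not. Control arrays with sums of 6855 and 6427 had more Csf3r, 10.19 and 10.20, than the pregnant arrays with sums of 8521 and 11332. The part of neutrophils in the Csf3r values was not tested.

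Csf1 varied most within the lavage groups. By 1460220_a_at it measured 7.78, 8.45 and 7.41 in pregnant lavage and 9.17, 7.79 and 7.26 in control lavage. The groups overlapped across their whole range, and the difference of -0.19 ± 0.51 had a wide interval, -1.41 to 1.02 (adjusted p = 0.926). By 1448914_a_at the values were 7.03, 7.36 and 6.96 against 8.30, 7.32 and 6.60, a difference of -0.29 ± 0.40 (adjusted p = 0.842). Both signs turned without the first control array, to 0.36 (adjusted p = 0.772) and 0.16 (0.872). Probe sets 1425155_x_at and 1425154_a_at differed by -0.03 and 0.08 and were dim.

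The arrays with the most Csf1 in each lavage group also had the largest sums of dendritic cell, neutrophil, T cell and epithelial markers. Csf1 intensity by 1460220_a_at was 349 on the second pregnant array and 576 on the first control array. The dendritic cell marker sums were 609, 973 and 475 in pregnant lavage and 1674, 870 and 788 in control lavage, with 2 of the 5 markers above the 40th percentile on every lavage array but the first control array, which had 3. Neutrophil sums were 8521, 11332 and 6730 against 20503, 6855 and 6427, with 4 or 5 of 9 markers above that percentile. T cell sums were 431, 607 and 400 against 1169, 1158 and 467, with 0 to 4 of 7 markers above it. Epithelial sums were 34252, 37228 and 30276 against 34341, 26262 and 30221. The second pregnant and first control arrays led each of these 4 sums in their group, but single markers differed. On these arrays the epithelial markers Cdh1 (11.73 and 12.05) and Krt19 (13.72 and 13.62) were lowest of their group. So was the neutrophil marker Mmp8 (9.75 and 10.14). The dendritic cell marker Ccr7 was highest of its group on these arrays (9.03 and 9.93). Flt3, however, was highest on the second control array (6.18, with 5.93 on the first). Of the pregnant arrays, Zbtb46 was highest on the first (8.24, with 8.22 on the second). The T cell marker Cd3e was highest on the second control array (8.46, with 7.68 on the first). The sum of fibroblast and endothelial markers, all below the 40th percentile, was also largest on the second pregnant and first control arrays (215 and 209). B cell markers stayed below the 40th percentile, and their sum was largest on the second array of each group. The second pregnant array also had the highest 3' minus 5' log2 signals in the lavage, 0.39 for actin and 3.86 for the transferrin receptor, with 0.26 to 0.35 and 2.83 to 3.47 on the other 5 lavage arrays. The part of these cells and of RNA quality in the Csf1 values was not tested.

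**Figure D3:**
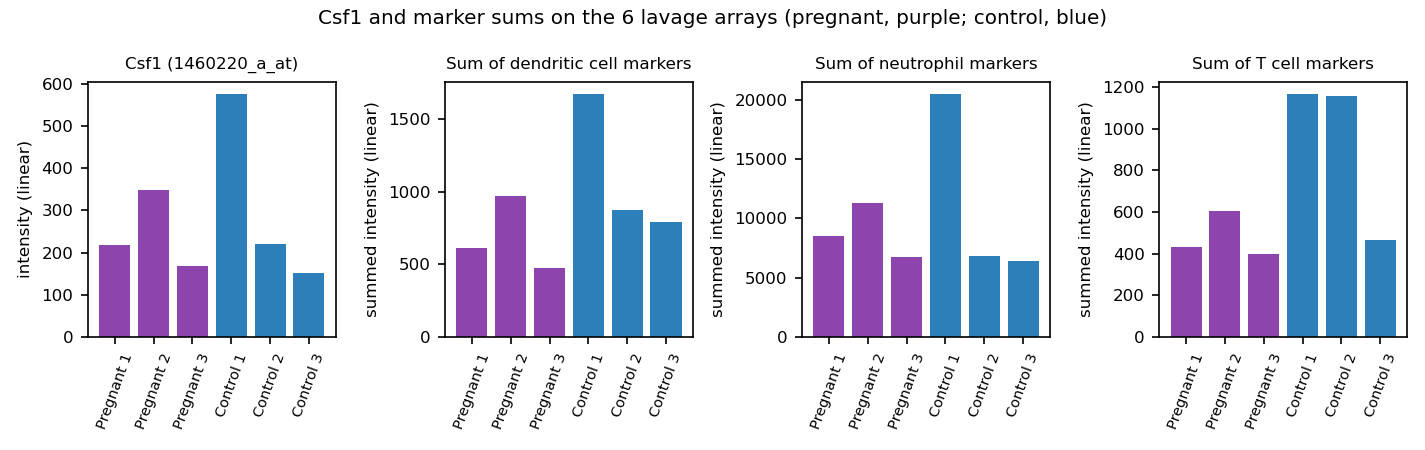
Bars show linear intensity of Csf1 (1460220_a_at) and summed linear intensity of dendritic cell, neutrophil and T cell markers on the 6 lavage arrays, pregnant in purple and control in blue, 1 bar per array and all axes from 0. The second pregnant array (Csf1 349) and the first control array (Csf1 576) are the highest of their group in all 4 panels.

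For the receptor genes other than Csf3r, the pregnancy differences were close to 0. Csf1r measured 13.30, 13.29 and 13.24 in pregnant lavage and 13.22, 13.33 and 13.33 in control lavage by 1419872_at, and its 3 probe sets differed by -0.06 to -0.02. Csf2ra measured 13.38, 13.26 and 13.30 against 13.23, 13.37 and 13.34 by 1420703_at, a difference of 0.00 (95% interval -0.17 to 0.17). By 1420704_at it measured 9.83, 9.67 and 9.70 against 9.78, 9.69 and 9.90 and differed by -0.06 (-0.25 to 0.14). The groups overlapped for each of these probe sets.
Csf2rb measured 13.07, 12.93 and 13.05 against 13.02, 13.08 and 13.00, a difference of -0.02 (-0.18 to 0.15). Csf2rb2 measured 12.77, 12.70 and 12.76 against 12.72, 12.89 and 12.74, a difference of -0.04 (-0.21 to 0.13). The intervals of the GM-CSF and interleukin-3 receptor chains together ran from -0.25 to 0.17.

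The estradiol and pregnancy changes were set against each other in 1 fit of all 12 arrays. No member was called by limma, beside 3.15% of all probe sets, and 5 passed an unadjusted p under 0.05, beside 17.8%. For Csf1 by 1460220_a_at the pregnancy change was lower than the estradiol change by 1.93 log2 units (-1.93 ± 0.57, 95% interval -3.19 to -0.67, adjusted p = 0.104). Without the third control array the difference was -2.34 and called (adjusted p = 0.0442), and without the first control array it was -1.38 (0.0666). A difference in response of Csf1 between the line and the lavage was therefore not established. For Csf3r it was -0.51 ± 0.18 (adjusted p = 0.169), and for the 3 Csf1r probe sets -0.36 to -0.15, none called.

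**Figure D4:**
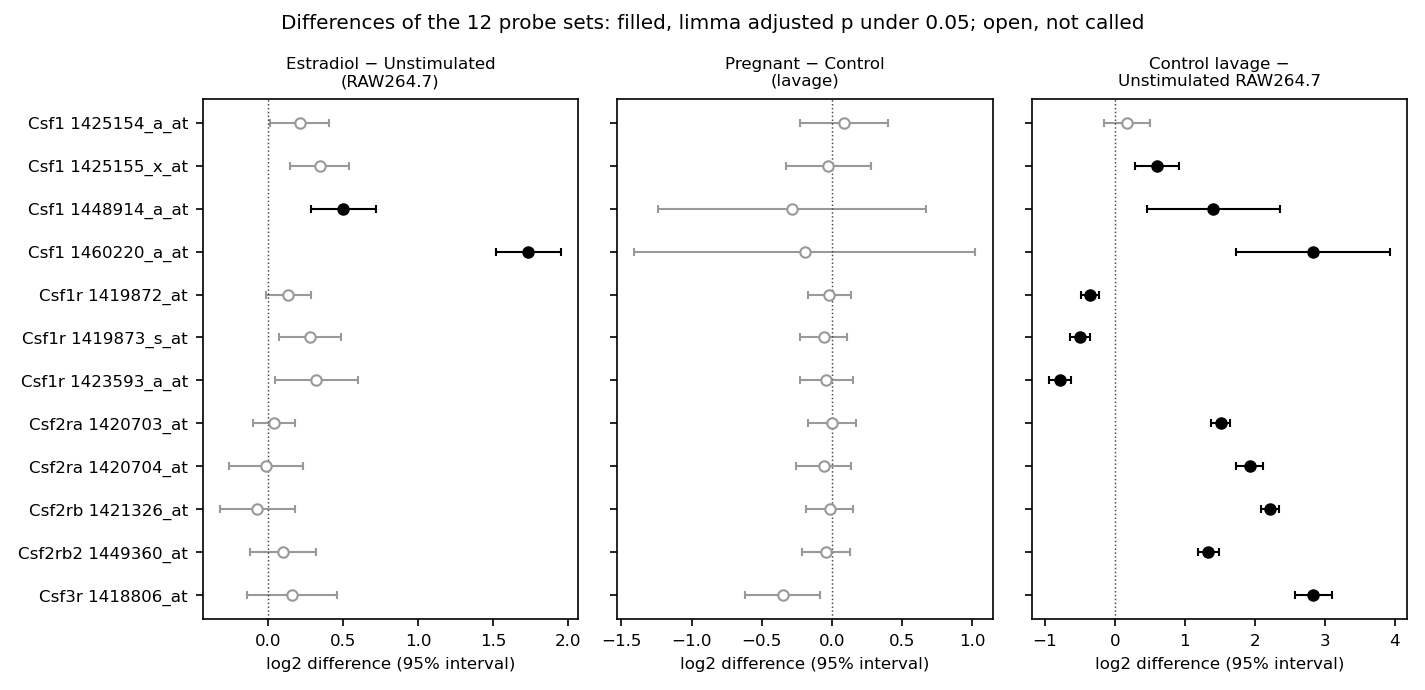
Log2 differences of the 12 probe sets with 95% intervals on the horizontal axis, in 3 panels: estradiol minus unstimulated RAW264.7, pregnant minus control lavage, and control lavage minus unstimulated RAW264.7. Filled points were called by limma (adjusted p under 0.05) and open points were not. The panels hold 2, 0 and 11 filled points.

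The widest differences were those between lavage macrophages and the line. Control lavage was set against unstimulated RAW264.7 cells, groups that differ in origin, culture and cell mixture at once, which cannot be told apart. All 6 genes had a called probe set, 11 of the 12 in all: 8 higher in lavage, beside 26.4% of all probe sets, and 3 lower, all of Csf1r, beside 34.8%. With 61.1% of all probe sets called either way and 69.3% with groups apart, a call was the usual outcome, and the sizes carry more than the counts. The median of the members was 1.37, against -0.07 over all probe sets. Pregnant lavage set against estradiol cells, an alternative chosen after seeing the data, called 11 of 12 in the same directions, 8 higher and 3 lower, beside 22.9% and 29.5% of all probe sets, or 52.4% either way.

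Csf2rb, the signalling chain shared by the GM-CSF, interleukin-3 and interleukin-5 receptors, was higher in lavage with little spread in both groups. It lay between 13.00 and 13.08 in control lavage and between 10.77 and 10.88 in unstimulated cells. The difference was 2.22 ± 0.05, or 4.66-fold (limma adjusted p = 2.50e-07). Csf2ra was higher by 1.51 ± 0.06 (2.85-fold, adjusted p = 1.53e-06) and, by its other probe set, by 1.93 ± 0.08 (3.80-fold). Csf2rb2 was higher by 1.34 ± 0.06 (2.52-fold). For all 3 chains the lavage groups overlapped with each other, the line groups overlapped with each other, and every lavage array lay above every array of the line. Csf2rb and Csf2rb2 are close paralogs, so signal shared between their probes is possible and each value is uncertain to that extent.

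Csf3r was 7.14-fold higher in control lavage than in unstimulated cells, by 2.84 ± 0.11 (adjusted p = 2.14e-06). Its groups ordered as control, pregnant and then both line groups, which overlapped. The neutrophil marker sums also differed here, 6427 to 20503 in control lavage against 359 to 377 in unstimulated cells. Of the 9 measured markers 5 were called higher in lavage, beside 27.8% of all genes. Ngp, Camp and Mpo were not called, and Elane was lower (-0.28, limma adjusted p = 0.0101). The part of neutrophils in the Csf3r difference was not tested. Csf1 by 1460220_a_at was higher by 2.83 ± 0.46, or 7.11-fold (adjusted p = 0.00171), and by 0.90 ± 0.25 (adjusted p = 0.0202) where pregnant lavage was set against estradiol cells. The Csf1 groups ordered as control, pregnant, estradiol and unstimulated, with only the lavage pair overlapping. Of its other probe sets, 1448914_a_at was higher by 1.40 ± 0.39 (adjusted p = 0.0201; 0.0627 and 0.0531 without the second or the third unstimulated array), 1425155_x_at by 0.60 ± 0.13 (0.00675), and 1425154_a_at differed by 0.17 (0.310).

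Csf1r went the other way. Its 3 probe sets lay lower in control lavage than in unstimulated cells by 0.35 ± 0.05, 0.49 ± 0.06 and 0.79 ± 0.06 as sizes of the log2 difference, each called (adjusted p of 0.00127, 0.000427 and 6.37e-05). By 1423593_a_at it measured 10.94, 11.15 and 11.06 in control lavage and 11.86, 11.84 and 11.82 in unstimulated cells. Even the lowest array of the line was above the highest lavage array. The groups ordered as estradiol, unstimulated, control and pregnant, and only the lavage groups overlapped.

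Genes whose profile over the 12 arrays was most like a member's were found by the root mean square difference between profiles centred on their means, given here as a description of arrays that share source and groups. Nearest to Csf2ra were Egln1 (0.0346 log2 units), Dock8 (0.0531) and Map1lc3b (0.0616). Nearest to Csf2rb were AU020206 (0.0989), Adipor2 (0.127) and Klf4 (0.130), and nearest to Csf2rb2 were Map4 (0.0546), Camk2g (0.0636) and Pigs (0.0638). Csf3r had Grk5 (0.151), Vopp1 (0.159) and Pag1 (0.187). Csf1 had no close match, the nearest being Cald1 (0.412), Fas (0.422) and Ccrl2 (0.447). None was sought for Csf1r, since the SD of its representative probe set over the 12 arrays, 0.24, was under the minimum of 0.5 set for this measure.

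Among 10 measured of 11 other ligands and receptors of the family and its relatives, none was called with pregnancy, beside 0% of all 12393 genes. With estradiol 1 of the 10 rose and 1 fell, where 9.88% of all genes were called. The gene that rose was Csf2, which encodes GM-CSF. It measured 5.26, 5.42 and 5.55 in estradiol cells and 4.73, 4.27 and 4.65 in unstimulated cells, higher by 0.86 ± 0.14, or 1.82-fold (adjusted p = 0.0126). The groups were apart, but no array lay above the 40th percentile, so the signal was dim throughout, and the call was lost without the third estradiol array (0.79, adjusted p = 0.0517). In lavage Csf2 stayed between 4.54 and 4.78, and its pregnancy change was lower than its estradiol change by 0.92 log2 units (-0.92 ± 0.17, adjusted p = 0.0146). The gene that fell was Kitl, encoding stem cell factor, the ligand of KIT, by 0.39 ± 0.06 on the log2 scale (adjusted p = 0.0110), a call lost without the first (0.0558) or second (0.0591) unstimulated array and in 1 fit of all 12 arrays (0.304).

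The rule for named genes covered every gene of this list. Csf3 and Il34, the ligands of the remaining receptors, were picked from it for description after their values were seen. Both were dim in all groups. Their estradiol differences were 0.47 ± 0.14 (adjusted p = 0.0888) and 0.22 ± 0.06 (0.0922), with groups apart but no call. Il3, Il5, Il3ra, Il5ra, Kit and Flt3 were not called with estradiol either. Between control lavage and unstimulated cells 1 of the 10 rose and 1 fell, with 61.4% of all genes called. Il3ra, the interleukin-3 alpha chain that pairs with the same beta chains, measured 8.45, 8.34 and 8.44 in control lavage against 6.33, 6.27 and 6.56, higher by 2.02 ± 0.09, or 4.06-fold (adjusted p = 3.19e-06). Kitl was 11.0-fold lower.

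**Figure D5:**
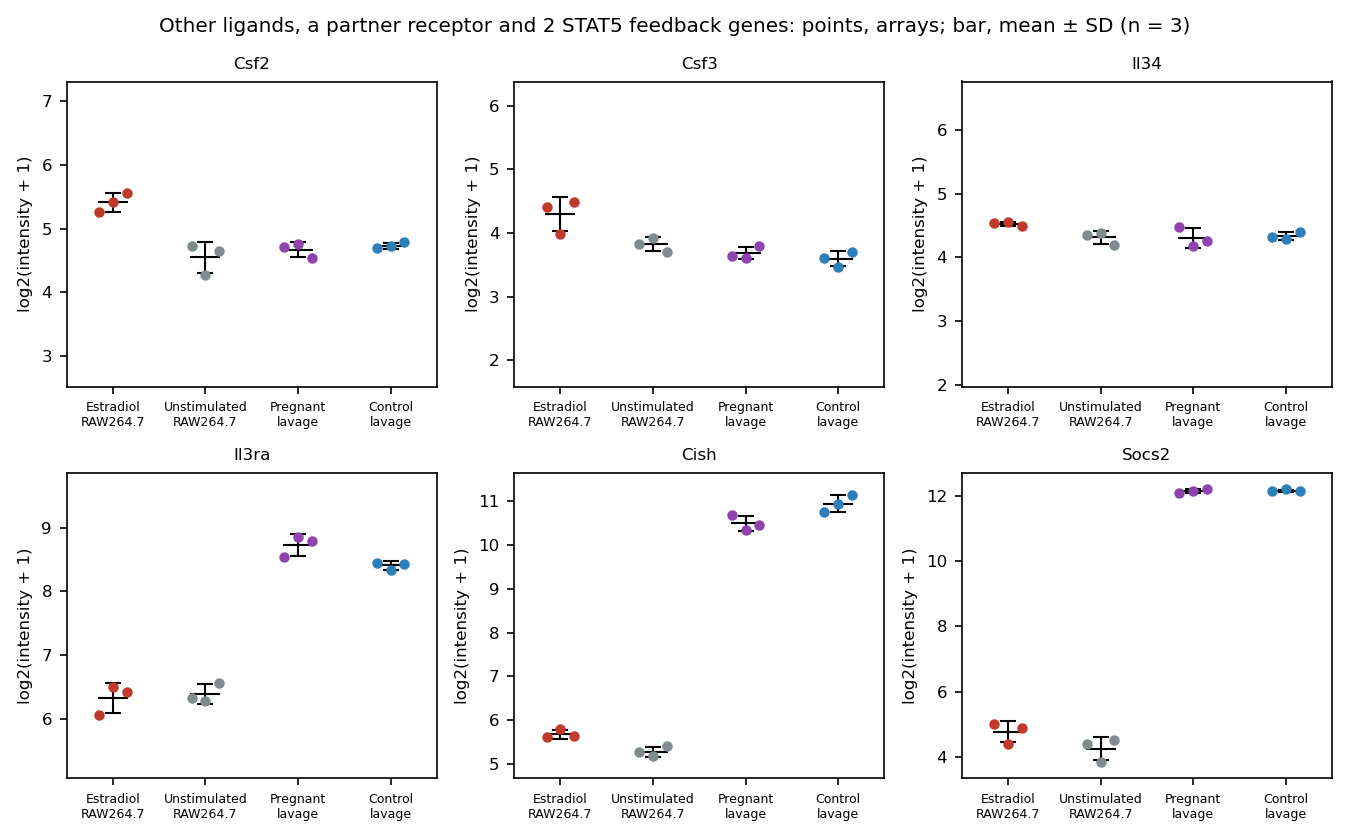
Levels of Csf2, Csf3, Il34, Il3ra, Cish and Socs2 as log2(intensity + 1) for the 4 groups; points are arrays and bars are means with SD (n = 3). The vertical span is wider for Cish and Socs2. The ligand genes sit between 3.47 and 5.55 in every group, whereas Il3ra, Cish and Socs2 sit far higher on the lavage arrays.

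Of 19 measured of 24 signalling genes below the receptors, 15 were higher and 3 lower in control lavage than in unstimulated cells, beside 27.8% and 33.6% of all genes. Their median difference was 0.58, against -0.07 over all genes. Examples were the SRC-family kinase Fgr (2.62 ± 0.06), Stat3 (1.63 ± 0.05), the kinase Syk (1.15 ± 0.05) and Jak2, the kinase bound to CSF2RB (1.06 ± 0.05). With estradiol 1 rose and 1 fell, beside 5.82% and 4.06% of all genes, and with pregnancy none was called, beside 0%. Fgr measured 10.17, 10.35 and 10.23 in estradiol cells against 9.84, 9.73 and 9.72, higher by 0.49 ± 0.07 (adjusted p = 0.00767), and it remained called with each array left out. Gab2, an adaptor, fell by 0.37 ± 0.07 on the log2 scale (adjusted p = 0.0273). Gab2 was dim, and its call was lost without any 1 of 4 arrays: the first (adjusted p = 0.0985) or the third (0.111) unstimulated and the first (0.0524) or the third (0.0722) estradiol array. It was also lost in 1 fit of all 12 arrays (0.237).

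All 13 negative regulators were measured, and 7 were higher and 5 lower in control lavage than in unstimulated cells, beside 27.8% and 33.6% of all genes, with a median of 0.30 against -0.07. Socs2 and Cish, feedback inhibitors known to be induced by STAT5, differed most. Socs2 measured 12.13, 12.19 and 12.14 in control lavage against 4.39, 3.86 and 4.53, a difference of 7.89 ± 0.17. Cish measured 10.76, 10.93 and 11.14 against 5.27, 5.17 and 5.40, a difference of 5.66 ± 0.11. Both were below the 40th percentile on all arrays of the line. Dusp6, a phosphatase of ERK, was also higher (1.36 ± 0.12), and the adaptor Dok1 was lower (-0.92 ± 0.05). Spry2 was lower too, at 7.63, 5.84 and 6.22 in control lavage against 9.31, 9.38 and 9.41 in unstimulated cells.

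With estradiol 1 of the 13 rose and 1 fell, beside 5.82% and 4.06% of all genes. Cish rose by 0.40 ± 0.08 (adjusted p = 0.0301) at dim levels and Dok1 fell by 0.24 ± 0.05 on the log2 scale (adjusted p = 0.0295). The Cish call was lost without the first (adjusted p = 0.108) or second (0.110) unstimulated array or the third estradiol array (0.0824) and in 1 fit of all 12 arrays (0.0619), and the Dok1 call without any unstimulated array (0.0935 to 0.122), without the third estradiol array (0.0991), or on a common median (0.0619). None of the 13 was called with pregnancy, beside 0% of all genes. Cish measured 10.67, 10.34 and 10.46 in pregnant lavage against 10.76, 10.93 and 11.14 in control lavage. The groups were apart, at -0.45 ± 0.13 (adjusted p = 0.420), with no call. The pregnancy change of Cish was lower than its estradiol change by 0.85 log2 units (-0.85 ± 0.16, adjusted p = 0.0183), a call lost without the first (0.0506) or second (0.0571) unstimulated array.

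Of 14 measured of 16 transcription factors tied to these receptors, 9 were higher and 3 lower in control lavage than in unstimulated cells, beside 27.8% and 33.6% of all genes, with a median of 0.52 against -0.07. Pparg, the alveolar macrophage factor that GM-CSF induces, was higher by 6.22 ± 0.07, at 12.48 to 12.68 in control lavage against 6.27 to 6.42. Cebpa (2.18 ± 0.08), Cebpb (1.67 ± 0.09) and Bhlhe40 (1.00 ± 0.05) were higher too. Bhlhe41 was among the lower ones, at 7.36 to 7.63 in control lavage against 8.07 to 8.19 in unstimulated cells. With estradiol none rose and 2 fell, beside 5.82% and 4.06% of all genes. These were Bhlhe40, lower by 0.49 ± 0.06 on the log2 scale (adjusted p = 0.00381) and its paralog Bhlhe41, lower by 0.43 ± 0.07 (0.0169). Bhlhe40 stayed called with each array left out, and Bhlhe41 lost its call without any unstimulated array (adjusted p between 0.0558 and 0.0788) or without the third estradiol array (0.0601). With pregnancy none of the 14 was called, beside 0% of all genes.

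Alveolar macrophage genes that depend on GM-CSF in mice separated lavage from line most. Of 14 measured of 18, 11 were higher and 2 lower in control lavage than in unstimulated cells, beside 27.8% and 33.6% of all genes, with a median of 6.80 against -0.07. Chil3 (10.14 ± 0.10), Plet1 (9.51 ± 0.13) and Krt79 (7.38 ± 0.07) were higher and lay below the 40th percentile on the arrays of the line. This list shares Pparg and Bhlhe41 with the one before. The 2 that were lower were lipid-handling Fabp4 and Bhlhe41. Fabp4 measured 11.85, 11.65 and 11.52 in control lavage against 13.58, 13.57 and 13.56 in unstimulated cells, which is 3.73-fold lower. Bhlhe41 measured 7.63, 7.63 and 7.36 in control lavage against 8.07, 8.11 and 8.19 in unstimulated cells.

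With estradiol none of these rose and 4 fell, beside 5.82% and 4.06% of all genes. On the log2 scale Bhlhe41 fell as above, Fabp4 by 0.25 ± 0.05 (adjusted p = 0.0205), the integrin Itgax by 0.49 ± 0.10 (0.0336) and the scavenger receptor Cd36 by 0.52 ± 0.12 (0.0475). Each of these 3 lost its call without any unstimulated array or without the third estradiol array, with adjusted p of at most 0.0925 for Fabp4, 0.119 for Itgax and 0.163 for Cd36, and Itgax also without the first estradiol array (0.0623). Fabp4 (0.0598) and Itgax (0.0615) lost it on a common median as well, Fabp4 in 1 fit of all 12 arrays (0.116), and Cd36 with the mean of its probe sets (0.0547). With pregnancy none of these genes was called, beside 0% of all genes. Fabp4 measured 12.39, 12.62 and 12.38 in pregnant lavage against 11.85, 11.65 and 11.52 in control lavage. Those groups were well apart, at 0.79 ± 0.11, yet the adjusted p was 0.370 and no call was made.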

How the data were processed

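RNA from 12 samples was measured on Affymetrix mouse arrays, 1 array each. The deposited table gives 1 linear intensity per probe set and array, made by the authors with RMA per the submitters' processing notes. RMA normally yields log2 values. The intensities here ran from 6.51 to 28506, so log2(intensity + 1) was taken. Genes came from the platform annotation, with 20380 probe sets holding 1 symbol, 691 several and 1555 none. The 64 control probe sets were not tested. The members and lists were chosen with earlier results of these data known.

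Each comparison was fitted with limma 3.58.1 (lmFit, eBayes) in R 4.3.3 on its own 6 arrays, two-sided, with Benjamini-Hochberg adjustment over 22626 probe sets. The difference between the pregnancy and estradiol changes used all 12. A listed gene was represented by its probe set with the highest mean, and up to 4 genes per list and comparison were named, in order of p. Any gene of the list of other ligands and receptors could be named too. Some genes that were lower in control lavage than in unstimulated cells were named beyond this order. A ± value after a difference is its standard error. The fits were tested on simulated data. Alternatives were quantile normalization, a common median, a filter on dim probe sets, gene-level values, a robust prior, array weights, no pseudocount, an adjusted p under 0.01, 1 fit of all arrays and leaving out each array.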

Additional observations from a re-analysis of the deposited data

Results flagged for a closer look

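The pregnancy change minus the estradiol change was tested for every gene of the pathway lists in 1 limma fit of all 12 arrays, and 7 of them passed an adjusted p of 0.05, whereas no family member did. These were 1 of 10 other ligands and receptors, 1 of 19 signalling genes and 1 of 13 negative regulators. Another 2 of 14 transcription factors and 3 of 14 alveolar macrophage genes passed, with Bhlhe41 in both of these lists. Of all genes 3.57% passed. The difference was -0.92 for Csf2 (adjusted p = 0.0146), -0.85 for Cish (0.0183) and -0.56 for Fgr (0.0163), whose changes were higher with estradiol than with pregnancy. It was 1.04 for Fabp4 (0.00135), 0.65 for Bhlhe41 (0.0238), 0.53 for Itgax (0.0477) and 0.34 for Bhlhe40 (0.0472), whose changes were lower with estradiol. The Csf2 and Fabp4 calls remained with each of the 12 arrays left out. Cish lost its call without the first (adjusted p = 0.0506) or second (0.0571) unstimulated array, Fgr without the second (adjusted p = 0.0539) or the third (0.0539) unstimulated array, and Bhlhe41 without the second (0.0637) or the third (0.0707) unstimulated or the third estradiol array (0.0576). Itgax and Bhlhe40 lost theirs in 11 of the 12 such fits each, with an adjusted p of up to 0.118 for Itgax and 0.124 for Bhlhe40, and also with quantile normalization (0.0534 and 0.0546) and on a common median (0.0822 and 0.0843).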

How the results depend on the processing

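With estradiol, 1 member gene and 2 member probe sets were called. With the filter on dim probe sets these became 0 and 0, with array weights 2 and 6, with the intensity-dependent robust prior 2 and 3, and on a common median 1 and 3. An adjusted p under 0.01, or 1 fit of all 12 arrays, left 1 probe set. Leaving out single arrays gave 1 to 2 genes and 1 to 4 probe sets. In the pregnancy comparison no setting called a member, and in the comparison of control lavage with unstimulated cells all 6 genes were called under every setting run. For the difference between the 2 changes, array weights called 2 genes and 3 probe sets, and leaving out single arrays 0 to 1 of each. Signs turned by at least the value's standard error, never with a call, for estradiol on Csf2rb without the second (0.044; -0.14 to 0.044 over single arrays left out) and on Csf2ra 1420704_at without the third estradiol array (0.089; -0.085 to 0.089). They turned for pregnancy without the first control array on Csf1 1460220_a_at (0.36; -0.60 to 0.36) and 1448914_a_at (0.16; -0.69 to 0.16), and for the difference on Csf2ra 1420704_at with array weights (0.13). Other uncalled values near 0 turned by less than their standard error. Over all probe sets the estradiol count of 2098 became 8297 with array weights, 696 at 0.01, 1014 without the third estradiol array and 801 to 836 without an unstimulated array. The pregnancy count of 0 became 39 in 1 fit of all arrays and 1 without the first control array. The difference count of 712 became 2195 with array weights and 194 at 0.01. Why these counts moved was not tested. No paired analysis was possible because replicate numbers only follow deposit order. The limits are 3 arrays a group, dim Csf1 and Csf2 signal in the line, no detection calls, and lavage of mixed cells.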

Other observations

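A probe set annotated to both Csf2rb2 and Csf2rb, and so no member, measured 11.23, 11.28 and 11.21 in control lavage against 8.32, 8.31 and 8.22 in unstimulated cells. It was higher by 2.96 ± 0.05, or 7.76-fold (limma adjusted p = 7.91e-08), a larger step than that of either single-gene probe set of the beta chains. In pregnant lavage it measured 11.27, 11.35 and 11.32, and in estradiol cells 8.22, 8.33 and 8.28, and it was called with neither pregnancy nor estradiol.

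Single markers of other leukocytes changed with estradiol in the RAW264.7 line. S100a8, a calgranulin of neutrophils and activated macrophages, rose by 1.74 (adjusted p = 0.000943), Zbtb46, a dendritic cell transcription factor, rose by 1.08 (0.00144), and Cd28, a T cell costimulatory receptor, fell by 1.15 on the log2 scale (0.00122). The other measured neutrophil, dendritic cell and T cell markers were not called.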
